A study of Homo sapiens with 8 samples.

Results

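The genes described here encode the proteins of the cytoplasmic ribosome. They were chosen by symbol alone: RPL or RPS followed by a number, with the suffixes A, L or X and a paralogue digit allowed, together with RPSA, RPLP0, RPLP1 and RPLP2. In each of the 3 tables, 83 such genes were listed, among 18744 genes in the MS8815 table, 18320 in the EPZ-6438 table and 18398 in the MS8815N table. They comprised 31 small-subunit genes, 43 large-subunit genes, the 3 acidic stalk genes RPLP0, RPLP1 and RPLP2, and 6 paralogues of standard members (RPL3L, RPL7L1, RPL22L1, RPL26L1, RPL39L and RPS27L).

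RNA was sequenced from SUDHL6, a human diffuse large B-cell lymphoma line, after 18 h of treatment. Each of 4 groups held 2 libraries: the vehicle DMSO, and 2.5 µM of MS8815, EPZ-6438 or MS8815N. MS8815 is a PROTAC, a molecule that brings its target EZH2 to the degradation machinery of the cell. EPZ-6438 (tazemetostat) inhibits the catalytic domain of EZH2, and MS8815N is the analogue of MS8815 used as its non-degrading control. All groups, controls included, came from the same line, and the labels name no engineered allele. The labels call the libraries of a group duplicates without naming separate cultures. The spread behind the p-values is thus that of 2 libraries and may be technical only.

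Ribosomal proteins assemble with ribosomal RNA in the nucleolus into a small subunit, which decodes the message, and a large subunit, which forms the peptide bond. Their messages typically begin with a C followed by a run of pyrimidines, the 5′ terminal oligopyrimidine (TOP) tract, through which mTOR signalling and LARP1 control their translation and stability. The subunits contain most of the proteins in equal numbers, and the messages are among the most abundant in proliferating lymphoid cells.

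The annotated starts show this feature directly. RefSeq promoter windows (GRCh38.p14) matched 66 of the 83 genes, and a C followed by at least 4 pyrimidines (C or T, sense strand only) at the start was found in 47 of the 66 (71.2%). The same pattern stood at the start of 776 of the 10760 measured genes with a window (7.21%). The starts of genes whose changes are described below are printed 5′ to 3′ from 10 bases before to 20 bases from the annotated start. Capitals mark the pyrimidine run that begins at the start where it fits the TOP pattern. A sequence without capitals says only that these letters are not at the annotated start.
RPL22L1, minus strand of chr3:170870176-170870205: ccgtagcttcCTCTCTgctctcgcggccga
RPL22, minus strand of chr1:6199576-6199605: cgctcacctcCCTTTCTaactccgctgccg
RPS26, plus strand of chr12:56041908-56041937: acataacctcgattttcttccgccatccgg
RPL35A, plus strand of chr3:197950180-197950209: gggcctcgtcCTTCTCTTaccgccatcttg
RPLP0, minus strand of chr12:120201092-120201121: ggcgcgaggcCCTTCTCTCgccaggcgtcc
RPS21, plus strand of chr20:62387093-62387122: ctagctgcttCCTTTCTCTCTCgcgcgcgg
RPL13A, plus strand of chr19:49487598-49487627: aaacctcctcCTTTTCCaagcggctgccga
RPL26, minus strand of chr17:8383174-8383203: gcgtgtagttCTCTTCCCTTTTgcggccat
RPL26L1, plus strand of chr5:172958719-172958748: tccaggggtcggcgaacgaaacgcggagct
RPS27, plus strand of chr1:153990752-153990781: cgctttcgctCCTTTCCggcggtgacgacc
RPS27L, minus strand of chr15:63157458-63157487: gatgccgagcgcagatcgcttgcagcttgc
RPL7L1, plus strand of chr6:42879606-42879635: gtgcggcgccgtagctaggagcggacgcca
The paralogues RPL26L1, RPS27L and RPL7L1 lacked the pattern at the printed start, whereas RPL22L1 had it, as did the standard genes RPL22, RPL26 and RPS27. The strongly expressed RPS26 lacked it as well. Elsewhere in the windows of 300 bases, searched on both strands, the ETS-type words CCGGAAG and CGGAAGT, which overlap each other, occurred in 36.4% and 31.8% of the 66 genes against 21.5% and 15.0% of all matched genes. The E-box CACGTG occurred in 7.58% against 12.5%, and TATAAA in 9.09% against 8.43%.

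Depth, as estimated from the steps of the low values, was 30900000 and 31600000 reads in the DMSO libraries, 13000000 and 14600000 with MS8815, 30500000 and 26000000 with EPZ-6438 and 34100000 and 30200000 with MS8815N. These are estimates, since only 44.8% to 65.6% of the low values fell within 0.02 of a whole read. The MS8815 libraries stood apart in composition. Summed counts of 16 epithelial and fibroblast (adherent-cell) markers were 2166 and 1998 in DMSO against 34074 and 33923 with MS8815, with no marker at 0, and 14 of the 16 were called higher (limma, adjusted p under 0.05; 24.5% of all genes were). Summed counts of 12 B-cell markers were 110231 and 111963 in DMSO against 53129 and 52696 with MS8815, and all 12 were called lower (22.4% of all genes were). Mitochondrially encoded genes held 1.53% and 1.58% of the counts in DMSO and 3.99% and 4.21% with MS8815, and 11 non-polyadenylated RNAs 0.0986% and 0.0946% against 1.63% and 1.65%. The labels name 2 library kits without saying which library used which. The part of these differences in the results for MS8815 was not tested.

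In DMSO, the 77 standard genes had a median of 30300 normalised counts per kb of the annotated transcript, with quartiles at 21140 and 42790. RPL41, which encodes the smallest ribosomal protein, stood highest at 133910 ± 2870 per kb (SD, n = 2). RPS27 and RPS10 were among the lowest of the standard genes, at 1245 ± 18.3 and 1553 ± 43.8 per kb. Most of the proteins are built into ribosomes in equal numbers, and processed pseudogenes named after these genes are many: 77 of the 83 genes have at least 1 in GENCODE 29, 1145 in all, up to 91 for RPL23A. How the deposited counts divided reads between a gene and such copies is not given in the sources used here, so the levels of single members are uncertain. The SE of the log2 fold change with MS8815 was 0.12 for RPS27 and 0.16 for RPS10, against a median of 0.036 over the standard genes. The 6 paralogues had a median of 2364 per kb, and RPL3L, the striated-muscle counterpart of RPL3, was nearly absent at 0.930 ± 0.646 per kb.

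As a group the 83 genes made up 6.74% and 6.97% of the summed normalised counts of the DMSO libraries and 5.71% and 5.84% with MS8815. EPZ-6438 libraries held 7.03% and 7.01%, and MS8815N libraries 7.12% and 7.24%. Both MS8815 libraries lay below both DMSO libraries, and the other 4 treated libraries lay above them. Without the mitochondrially encoded and non-polyadenylated genes in the denominator, the MS8815 libraries held 6.05% and 6.20%, still below the 6.86% and 7.10% of DMSO in the same table. In bulk RNA, a lower share can come from fewer cells of a type or from less of the RNA per cell, and these cannot be told apart.

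**Figure D1:**
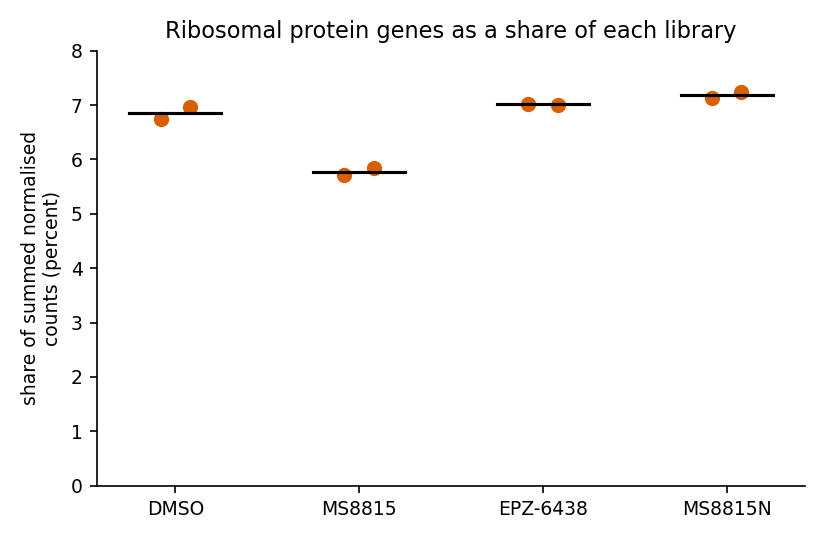
Share of the 83 ribosomal protein genes in the summed normalised counts, in percent on an axis from 0, for the 2 libraries of each group (points) and their mean (line). The MS8815 libraries, at 5.71% and 5.84%, lie below all the others.

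With MS8815, ribosomal protein genes were mostly lower than with DMSO on the deposited scale: 55 of the 83 were called lower and 1, RPL3L, higher (limma, Benjamini-Hochberg adjusted p under 0.05), against a background of 22.4% of all genes called lower and 24.5% called higher (46.9% in all). On this scale the fall was small for most members, with a median log2 fold change of -0.20 and quartiles of -0.27 and -0.086, beside a median over all genes of -8.1e-05. Genes of higher level fell about as much. When only the upper 50% of genes by level were tested, the median over all 9372 genes was -0.19, beside -0.20 over the 82 members kept. There 4030 of the 9372 genes and 56 of the 82 members were called lower. Both MS8815 libraries lay below both DMSO libraries for 67 genes (80.7%, against 35.9% of all genes), and above them for 6 (37.9% of all genes). The direction depended on the scaling. With libraries scaled to the 12 B-cell genes, 82 were called higher and 0 lower (73.9% and 0.64% of all genes), with a median of 0.94 beside 1.11 over all genes. The log2 factors of the MS8815 libraries were -1.163 and -1.109, and dividing by them raised all genes there alike. Values on this scale are thus the deposited ones with a common shift, not separate evidence on direction. With quantile normalisation, 25 were called higher and 26 lower (19.8% and 28.9% of all genes), with a median of 0.0066 beside -0.20 over all genes. Calls were lost whichever library was left out, while the median ran from -0.24 without DMSO replicate 1 to -0.17 without DMSO replicate 2. Such a fit has 1 residual degree of freedom and assumes that the lone library of a group varies like the other group, so a lost call is no sign of a smaller change.

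**Figure D2:**
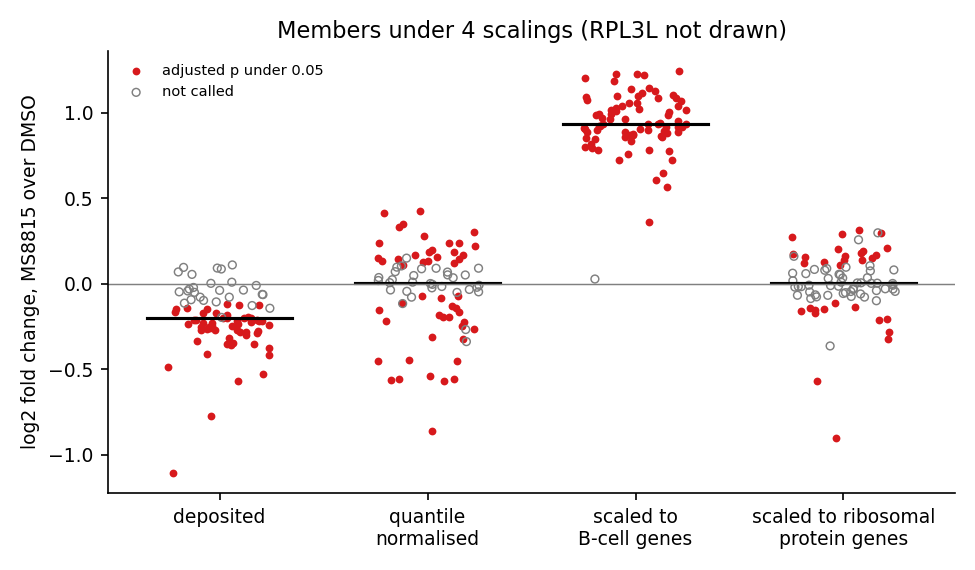
Log2 fold change of the ribosomal protein genes, MS8815 over DMSO, under 4 scalings (points; filled where the adjusted p was under 0.05; line, median; RPL3L lies outside the axis and is not drawn). The median moves from -0.20 as deposited to 0.94 when scaled to B-cell genes, while RPL22L1 stays the lowest point in each.

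Because a common factor moves all members together, differences between members are described on a scale on which their own median is 0. Scaled in this way, a choice made after the data were seen, 19 genes were called higher than the ribosomal median (28.8% of all genes were) and 13 lower (11.9% of all genes). These shares lie near those of all genes, and the calls concern single genes. The lowest values were those of RPL22L1, RPS26, RPS7 (which did not pass), RPL39L, RPL35A, RPL23A and RPL4. RPL22, RPS21, RPL12 and RPLP0 were at the high end, below the little-expressed RPL3L.

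**Figure D3:**
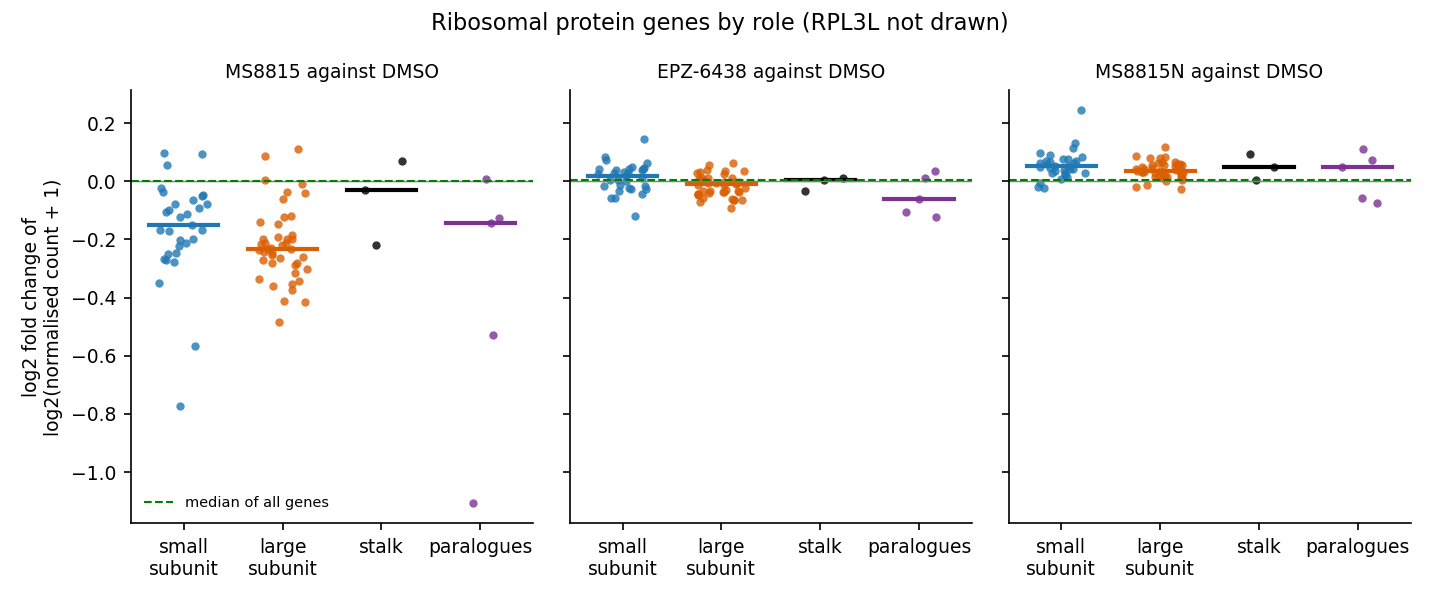
Log2 fold change of log2(normalised count + 1) in the 3 comparisons with DMSO, by role (points, genes; solid line, median of the role; dashed line, median of all genes; RPL3L not drawn). As deposited, large-subunit genes sit lower than small-subunit genes with MS8815 (medians -0.23 and -0.15), and points crowd around 0 with EPZ-6438. Scaling to B-cell genes puts both MS8815 medians above 0.

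Of the 43 large-subunit genes other than the stalk, 36 were called lower on the deposited scale, with a median of -0.23. Of the 31 small-subunit genes, 16 were called lower, with a median of -0.15. Of all genes, 22.4% were called lower, and 4030 of 9372 when only the upper 50% by level were tested. A factor common to all genes of a library cancels in the gap between the subunits, but quantile normalisation, which moves genes unequally, does not. In each library, the median small-subunit gene relative to its DMSO mean was set against the median large-subunit gene (stalk included, 46 genes). The difference was -0.0066 and 0.0066 in the DMSO libraries, 0.086 and 0.087 with MS8815, 0.026 and 0.025 with EPZ-6438 and 0.013 and 0.0065 with MS8815N. The MS8815 libraries had the widest gap, given as a description with no test. With quantile normalisation it was narrower, with medians of 0.035 for the small and 0.0083 for the large subunit with MS8815 against DMSO.

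RPL22L1 showed the largest fall among the members. RPL22L1 encodes a close relative of RPL22 that can take its place in the large subunit. Its normalised count was 3677 and 4001 with DMSO and 1686 and 1878 with MS8815. The groups did not overlap, and the log2 fold change was -1.11 ± 0.076 (SE; n = 2 and 2; limma adjusted p = 0.000154). Relative to the ribosomal median it was -0.90 ± 0.076 (limma adjusted p = 0.000344), but scaled to B-cell genes it was 0.028 ± 0.066 (limma adjusted p = 0.72). RPL22 itself had 4963 and 5253 with DMSO and 5631 and 5397 with MS8815, both above DMSO. Its change of 0.11 ± 0.049 did not pass on the deposited scale (limma adjusted p = 0.106), and relative to the ribosomal median it was 0.31 ± 0.045 (limma adjusted p = 0.00285).

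RPS26, a small-subunit protein at the messenger exit site, followed. It had 11091 and 11686 normalised counts with DMSO and 6777 and 6559 with MS8815. The gap between the groups was far wider than that between libraries, with a log2 fold change of -0.77 ± 0.042 (limma adjusted p = 7.51e-05), and 0.36 when scaled to B-cell genes. RPL35A, a large-subunit protein altered in some Diamond-Blackfan anaemia families, had 18353 and 19629 with DMSO against 13763 and 13364, a log2 fold change of -0.48 ± 0.041 (limma adjusted p = 0.00039), and 0.65 when scaled to B-cell genes. RPL4 had 39720 and 39637 against 29845 and 29878. Its libraries agreed closely within each group, and the log2 fold change was -0.41 ± 0.022 (limma adjusted p = 0.00011), and 0.73 when scaled to B-cell genes. RPL23A, the large-subunit protein near the exit of the nascent chain, had 18573 and 19582 against 13996 and 14632 (-0.41 ± 0.040; limma adjusted p = 0.000561; 0.72 when scaled to B-cell genes). RPL35A and RPL4, like RPL12 below, were chosen after their values were seen.

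RPS7 and RPL39L rest on fewer counts. RPS7 had 1256 and 1405 normalised counts with DMSO and 1014 and 793 with MS8815, and the 2 MS8815 libraries lay further apart than in the members above. Its log2 fold change of -0.57 ± 0.13 was called (limma adjusted p = 0.0146) but not when DMSO replicate 1, DMSO replicate 2 or MS8815 replicate 2 was left out (log2 fold change -0.65, -0.49 and -0.39; limma adjusted p = 0.0969, 0.168 and 0.0683), nor relative to the ribosomal median (0.0631). RPL39L, a form of RPL39 known from male germ cells and some tumours, had 1118 and 1223 against 780 and 842 (-0.53 ± 0.087; limma adjusted p = 0.00448). Without DMSO replicate 1 or DMSO replicate 2 its adjusted p was 0.0524 and 0.0843.

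The stalk genes, whose proteins recruit the elongation factors, did not move together. RPLP0, the stalk base, had 31108 and 31521 with DMSO and 33029 and 32693 with MS8815. Both MS8815 libraries were higher, but the change of 0.070 ± 0.023 was not called as deposited (limma adjusted p = 0.0727). It was 0.27 ± 0.028 relative to the ribosomal median (limma adjusted p = 0.00112) and -0.072 with quantile normalisation. RPLP1 had 16882 and 17888 against 17522 and 16513, overlapping groups (-0.031 ± 0.044). RPLP2 had 12259 and 13212 against 11025 and 10836 and was called lower (-0.22 ± 0.044; limma adjusted p = 0.00926), though not without DMSO replicate 2, MS8815 replicate 1 or MS8815 replicate 2 (limma adjusted p = 0.06, 0.0736 and 0.0886).

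The 5S particle proteins RPL5 and RPL11, which bind 5S RNA and can hold back MDM2, differed in level of change. RPL5 had 21668 and 22596 with DMSO and 18898 and 19332 with MS8815 (-0.21 ± 0.032; limma adjusted p = 0.00351). RPL11 had 13826 and 13755 against 13523 and 13366 (-0.037 ± 0.029; limma adjusted p = 0.337). Relative to the ribosomal median, RPL11 was higher (0.17 ± 0.038; limma adjusted p = 0.0177) and RPL5 was near it (-0.0083 ± 0.032; limma adjusted p = 0.865). The difference between the 2 genes was not itself tested.

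Among the remaining genes named in every comparison, RPS6, the S6 kinase substrate, had 31042 and 32504 with DMSO against 26792 and 26612 (-0.25 ± 0.030; limma adjusted p = 0.00167). RPS27A, made as a fusion with ubiquitin, fell by 0.25 on the deposited log2 scale (14314 and 15332 against 12382 and 12579; limma adjusted p = 0.00461), though not without either MS8815 replicate 1 or MS8815 replicate 2 (0.0631 and 0.0531). RPS14, deleted in the 5q- syndrome, had 12832 and 13494 against 11927 and 11485 (-0.17 ± 0.039; limma adjusted p = 0.0154), with an adjusted p from 0.0524 to 0.116 and a log2 fold change from -0.21 to -0.13 when 1 of the 4 libraries was left out. RPL3, RPL7, RPL10 and RPL39 were called lower, at -0.25, -0.34, -0.20 and -0.26. RPS19, RPSA, RPL13A and RPL26 did not pass, at -0.047, -0.021, -0.0096 and -0.042. Of these 4, RPS19, RPSA and RPL13A were higher than the ribosomal median, by 0.16, 0.18 and 0.19 (limma adjusted p = 0.0138, 0.00516 and 0.00293). At the upper end, RPS21 had 7382 and 7572 against 8153 and 7789 and RPL12 had 11423 and 11697 against 12024 and 12530. Neither pair of groups overlapped, and neither gene was called as deposited (0.092 ± 0.040 and 0.087 ± 0.036; limma adjusted p = 0.105 and 0.0921). RPS27 was at 0.096 ± 0.12. The paralogues RPS27L, RPL26L1 and RPL7L1 did not pass, at -0.14 ± 0.074, -0.13 ± 0.073 and 0.0095 ± 0.045.

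**Figure D4:**
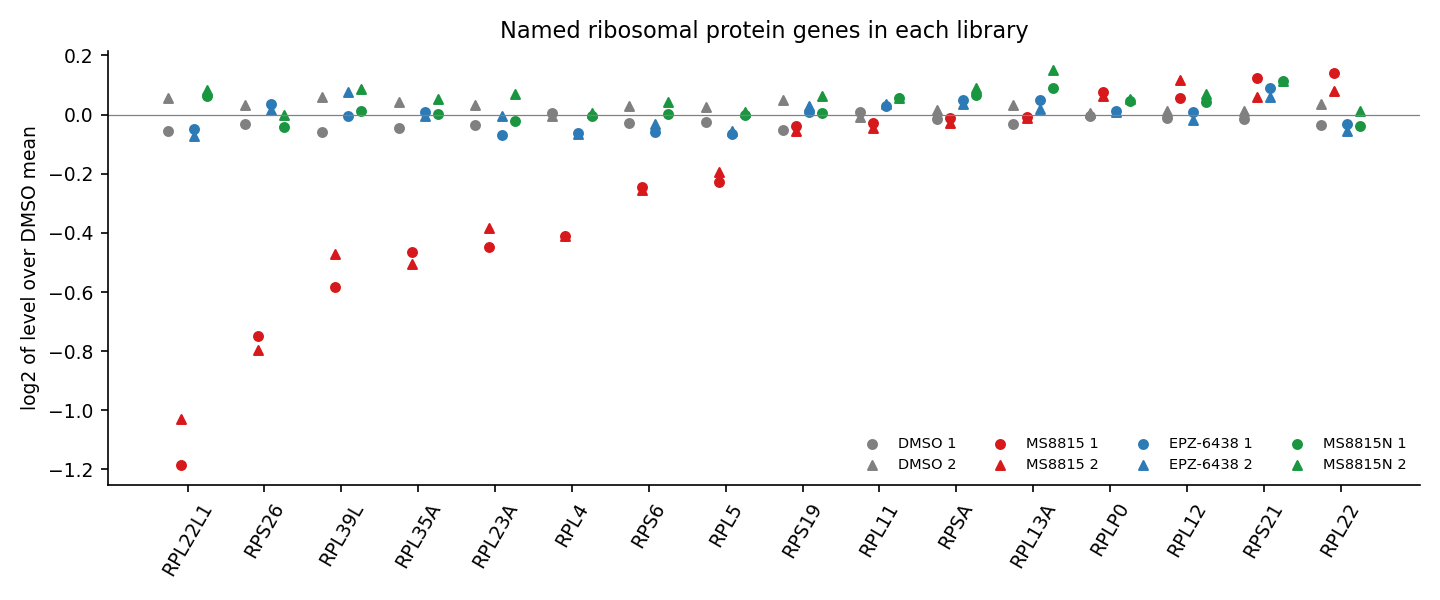
Log2 level of 16 members in each library over the DMSO mean, on the scale shared by the 3 tables (circles, replicate 1; triangles, replicate 2; colours, groups). The MS8815 points fall from near 0 at the right to about -1.11 on average for RPL22L1 at the left, while the EPZ-6438 and MS8815N points stay near DMSO; scaled to B-cell genes, RPL22L1 would stand at 0.028 and the other MS8815 points above 0.

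Other features of the genes were set beside the fold change with MS8815. Over the 77 standard genes, Pearson's r was -0.095 with annotated transcript length, -0.062 with the number of codons and -0.14 with the number of pseudogenes. These are descriptions across genes that share libraries, not independent points. The 46 standard genes with a TOP start had a median of -0.19 and the 16 without had -0.23. The 28 genes that hold small nucleolar RNA genes had a median of -0.22 and the other 49 had -0.20.

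With EPZ-6438, no ribosomal protein gene was called (0 of 83, limma, against 0.0328% of all genes). At an unadjusted limma p under 0.05 stood 8 of the 83, against 3076 of all 18320 genes. The test without a trend in the variance called 1 member lower (121 of the 18320 genes were). The median log2 fold change was -0.0028, and 39 genes lay above 0 and 44 below. RPL7L1 was lowest, with 10114 and 9967 normalised counts with DMSO against 9117 and 9337. Its groups did not overlap, and the change was -0.12 ± 0.029 with a 95% interval of -0.19 to -0.053 (limma adjusted p = 0.125). RPS27 was at -0.12 ± 0.099, RPL26L1 at -0.11 ± 0.069 and RPL15 at -0.092 ± 0.033. RPS10 and RPS21 were among the highest below RPL3L, at 0.14 ± 0.067 and 0.074 ± 0.028. RPL22L1 had 5347 and 5780 with DMSO and 5377 and 5288 with EPZ-6438, at -0.060 with an interval of -0.17 to 0.047. RPLP0 had an interval of -0.026 to 0.049, RPL5 of -0.11 to -0.0060 and RPL11 of -0.018 to 0.082. RPS26 had 16359 and 17130 against 17174 and 16926, overlapping groups.

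With MS8815N, no member was called either (0 of 83, limma, against 0.533% of all genes). Of the 83, 75 lay above 0 as deposited, with a median of 0.042 beside 0.0043 over all genes, and 40 had both treated libraries above both DMSO libraries (48.2%, against 23.5% of all genes). The 2 DMSO libraries themselves differed, with replicate 2 above replicate 1 in 76 of 83 members by a median of 0.056, and the median change without DMSO replicate 1 was 0.014. RPS10 was highest below RPL3L, with 980 and 1020 against 1218 and 1152 (0.24 ± 0.067; limma adjusted p = 0.157). RPL13A, which besides its ribosomal role is released to silence inflammatory transcripts, had 51096 and 53514 against 55647 and 57988 (0.12 ± 0.029; limma adjusted p = 0.142), and passed under quantile normalisation and in the fit with a replicate block (0.00224 and 0.0243). RPL26L1, RPL7L1, RPL15 and RPS4X were lowest, at -0.073 ± 0.055, -0.057 ± 0.029, -0.027 ± 0.023 and -0.023 ± 0.017. RPL22L1 had 5659 and 6119 against 6145 and 6231, at 0.072 with an interval of -0.033 to 0.18. Summed adherent-cell markers (14 measured) were 3400 and 3141 in DMSO and 4663 and 4399 with MS8815N, and none of the 14 was called.

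The compounds were then compared directly at the same dose and time, on the scale shared by the tables, in 3 pairs. Against its analogue MS8815N, MS8815 gave 70 members called lower and 2 higher (limma; 26.3% of all genes were called lower and 24.2% higher), with a median difference of -0.25 beside -0.046 over all genes; scaled to B-cell genes, 82 were called higher and 0 lower (78.1% and 0.956% of all genes), with a median of 0.84. With p-values adjusted over the 3 pairs together, 72 were called (47.3% of all genes). RPL22L1 was -1.18 ± 0.059 (95% interval -1.32 to -1.04; limma adjusted p = 1.68e-06) and RPS26 was -0.75 ± 0.032 (interval -0.82 to -0.68). Scaled to B-cell genes, RPL22L1 was -0.089 ± 0.050 and not called (limma adjusted p = 0.135), and RPS26 was 0.34. RPS7 and RPL39L were -0.66 ± 0.11 and -0.58 ± 0.072. At the other end, RPL22 was 0.12 ± 0.039 (limma adjusted p = 0.0283), not called without MS8815 replicate 1, MS8815N replicate 1 or MS8815N replicate 2 (0.102, 0.167 and 0.051). RPS27 and RPL7L1 were at 0.10 ± 0.10 and 0.067 ± 0.037. RPL5 and RPL11 were lower as deposited, at -0.21 ± 0.023 and -0.094 ± 0.020, and above 0 under quantile normalisation and both other scalings.

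Against EPZ-6438, MS8815 gave 61 members called lower and 5 higher (limma; background 26.3% and 24.2%), with a median of -0.19 beside -0.055 over all genes; scaled to B-cell genes, 82 were called higher and 0 lower (78.4% and 0.973% of all genes). With p-values adjusted over the 3 pairs, 65 were called (47.5% of all genes). RPL22L1 was -1.05 ± 0.059 (interval -1.18 to -0.91; limma adjusted p = 3.05e-06; 0.098 and not called, adjusted p = 0.104, when scaled to B-cell genes), RPS26 -0.80 ± 0.032, RPS7 -0.63 ± 0.11 and RPL39L -0.56 ± 0.072. RPL22 was 0.15 ± 0.039 (limma adjusted p = 0.0109), RPL7L1 0.13 ± 0.037 (0.0182) and RPS27 0.22 ± 0.10 (0.113). RPL22 lost its call without EPZ-6438 replicate 2 (0.0675) and RPL7L1 without EPZ-6438 replicate 1 or MS8815 replicate 1 (0.107 and 0.0695).

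MS8815N and EPZ-6438 did not differ in any member at the threshold (0 of 83, limma, against 0.172% of all genes). Adjustment over the 3 pairs together called 10 (2.54% of all genes). That adjustment pools the p-values with those of the MS8815 pairs, where 8304 and 8269 genes were called. The many calls there loosen the cut-off for this pair. MS8815N lay above EPZ-6438 in 78 of 83 members as deposited, with a median of 0.050 beside -0.0013 over all genes, and 60 had libraries that did not overlap in that direction (72.3%, against 20.4% of all genes). The differences were small. RPL7 was 0.079 higher with MS8815N (interval 0.042 to 0.12), RPL39 0.10 (0.046 to 0.16) and RPS27A 0.11 (0.027 to 0.19). RPL22L1 was 0.13 higher (interval -0.0039 to 0.27), RPS27 0.11 (-0.12 to 0.35) and RPS26 -0.048 (-0.12 to 0.026), the lowest member. RPL36 and RPS9 were next, at -0.0091 and -0.0063. A p above the threshold does not show that the 2 compounds act alike.

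Within a library, the ratio of a paralogue to its standard gene does not change with a factor common to all genes. Quantile normalisation, which moves genes unequally, can change it. The ratio was set out library by library. RPL22L1 stood at 71.8 and 73.8 normalised counts per 100 of RPL22 with DMSO, 72.0 and 72.0 with EPZ-6438, 78.2 and 76.5 with MS8815N, and 29.02 and 33.73 with MS8815. The MS8815 libraries lay far below the other 6. RPL39L stood at 8.994 and 9.502 per 100 of RPL39 with DMSO and 7.412 and 7.939 with MS8815, also lower than in each of the other libraries. RPS27L, a p53-responsive form of RPS27, stood at 364 and 371 per 100 of RPS27 with DMSO and 314 and 309 with MS8815. It stood above DMSO with the other compounds, at 412 and 394 with EPZ-6438 and 415 and 381 with MS8815N. The low level of RPS27 makes that ratio uncertain. RPL7L1, a relative of RPL7 linked to ribosome assembly, moved the other way, from 26.8 and 26.2 per 100 of RPL7 with DMSO to 34.8 and 32.6 with MS8815. RPL26L1 gave 56.1 and 54.4 per 100 of RPL26 with DMSO and 51.3 and 52.8 with MS8815, within the range of the EPZ-6438 libraries (49.1 and 56.3). The ratios compare counts of genes of different length and are used here only between libraries.

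**Figure D5:**
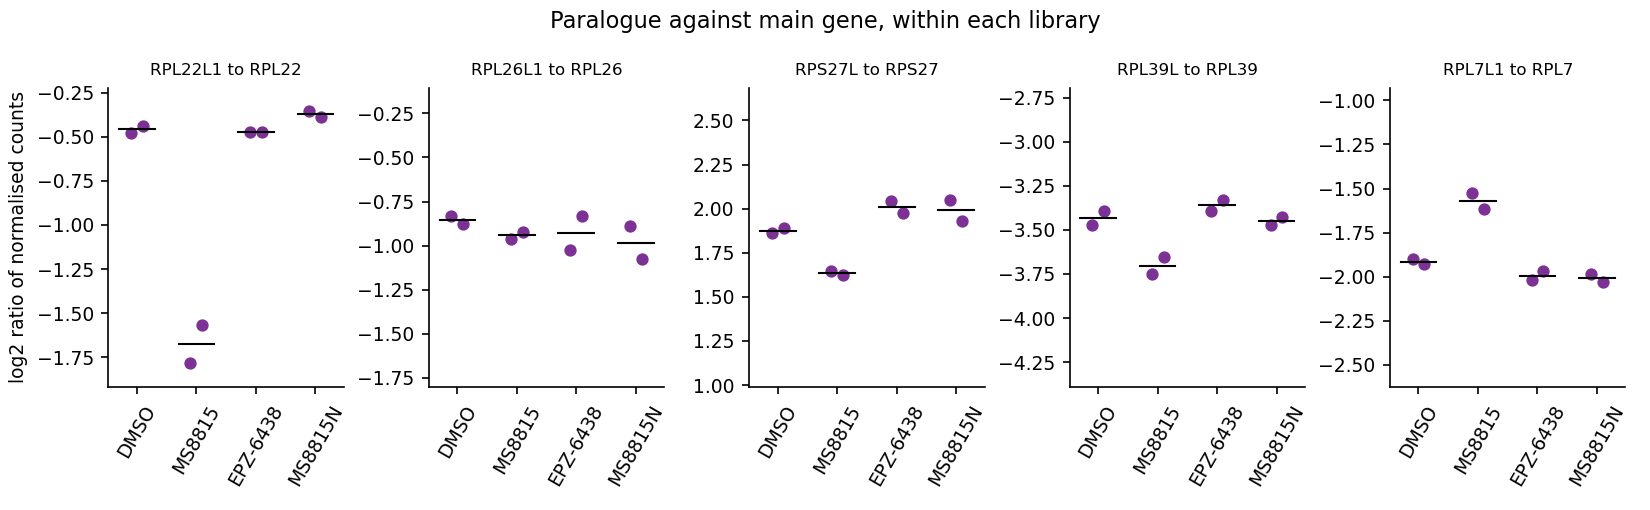
Log2 ratio of the normalised count of a paralogue to that of its standard gene in each library (points) with the group mean (line); each panel spans the same number of log2 units, at its own level. RPL22L1 to RPL22 falls from 71.8 and 73.8 per 100 with DMSO to 29.02 and 33.73 with MS8815, and RPL7L1 to RPL7 is higher with MS8815.

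RPL3L was the sole member called higher with MS8815 as deposited. Its normalised count was 0.544 and 1.61 with DMSO and 19.2 and 39.4 with MS8815, against 34391 and 33990 for RPL3 in the same MS8815 libraries. The fitted log2 value of 3.83 ± 0.66 depends on the pseudocount, being 4.72 with 0.1 and 1.78 with 10. The call (limma adjusted p = 0.00891) was lost without DMSO replicate 1 or DMSO replicate 2 (0.115 and 0.0928). With EPZ-6438 it was 2.88 and 4.52 against 0.972 and 2.85 in DMSO, and with MS8815N 3.68 and 5.22 against 1.03 and 3.03.

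Other genes of the ribosome and its assembly were examined with MS8815 against DMSO. Their counts stand beside 22.4% of all genes called lower and 24.5% higher as deposited, and 73.9% called higher when scaled to B-cell genes. Of 4 ribosomal genes outside the symbol rule, 3 were called lower as deposited, while scaled to B-cell genes all 4 were higher. Among the 3 were FAU, which encodes RPS30 fused to a ubiquitin-like protein (-0.48 ± 0.042), and RPL36AL (-0.45 ± 0.047). Of 16 further TOP messages, 9 were called lower and 4 higher, with a median of -0.19; scaled to B-cell genes all 16 were higher. HNRNPA1, PABPC1 and NPM1 had the smallest p, at -0.66 ± 0.025, -0.46 ± 0.047 and -0.37 ± 0.028.

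Factors that build the subunits were mostly lower on the deposited scale. Of 24 small-subunit assembly factors 21 were called lower, with a median of -0.53, and of 24 large-subunit factors 20 were lower and 1 higher, with a median of -0.54 (22.4% of all genes were called lower); scaled to B-cell genes, 22 and 24 were higher (73.9% of all genes). Relative to the ribosomal protein median, 15 and 18 were called lower (11.9% of all genes), with medians of -0.33 and -0.34. NOP56, a core box C/D nucleolar protein, was at -0.67 ± 0.048, and PES1, a large-subunit assembly factor, at -0.64 ± 0.044. RNA polymerase I genes gave 9 of 14 lower with a median of -0.45 (UBTF -0.50 ± 0.049), and 4 of 14 relative to the ribosomal median. Mitochondrial ribosomal protein genes gave 57 of 77 lower with a median of -0.39 (MRPL4 -0.77 ± 0.046), and 30 lower and 4 higher relative to the ribosomal median. Scaled to B-cell genes, 13 of the 14 and all 77 were higher. Long non-coding hosts of small nucleolar RNAs gave 2 of 11 higher and 2 lower, near the 24.5% and 22.4% of all genes (ZFAS1 0.91 ± 0.12, not called without DMSO replicate 1, adjusted p = 0.0517). Regulators of TOP translation gave 2 of 16 higher and 6 lower, beside the same 24.5% and 22.4% (EIF4EBP2 -0.57 ± 0.039, but 0.56 when scaled to B-cell genes).

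With EPZ-6438, no gene of these ribosome lists was called, and with MS8815N 1 was, beside 4 of 13 mitochondrially encoded and 2 of 11 non-polyadenylated genes, all higher (0.533% of all genes were called). EIF4EBP1, the mTOR-regulated inhibitor of cap binding, was 0.54 ± 0.045 higher with MS8815N (limma adjusted p = 0.00785). With any 1 of the 4 libraries left out, the adjusted p ran from 0.0809 to 0.443 and the log2 fold change from 0.52 to 0.56. GAS5, a TOP-type host of small nucleolar RNAs, was at 0.22 ± 0.057 (limma adjusted p = 0.138).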

How the data were processed

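RNA-seq libraries of SUDHL6 cells were available as 3 tables, 1 per compound, each with its 2 libraries and the 2 DMSO libraries. Per the labels' protocols, either of 2 kits was used. Per the submitters' processing notes, STAR 2.4.2 and Salmon were used with GRCh38. The deposited values are log2-type variance-stabilised counts, per the file names the output of DESeq2, made by the authors for each table separately. How reads shared with pseudogenes were assigned is not given in the sources used here.

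Normalised counts were obtained by inverting the transformation with the table minimum as its value at 0. The DMSO libraries of the tables differed only by constants (largest deviation 7e-11 log2 over 17219 genes), which put all 8 libraries on 1 scale over 17467 genes. Comparisons with DMSO used limma 3.58.1 (R 4.3.3) with a variance trend on the deposited values over all genes of a table (2 residual degrees of freedom). Pairs of compounds used log2(normalised count + 1) of all 8 libraries (4 residual degrees of freedom). The test is two-sided, with Benjamini-Hochberg adjustment over all genes and a threshold of 0.05. Log2 fold changes and SEs are of log2(normalised count + 1), which understates changes of low genes. Fits were tested on simulated data with planted log2 changes of 1 and 2 in either direction, larger than those of most members. Smaller changes were not planted, and the unlike composition of the MS8815 libraries was not simulated. Annotation came from GENCODE 29, with the shortest best-supported principal transcript as the length. RPL37 and RPS27L, whose chosen transcripts have 7686 and 6434 bases, were not ranked by level per kb. RPL37 was kept in the median and quartiles of the standard genes and in the correlation with transcript length. RPS27L was kept in the median of the paralogues. Some other chosen transcripts are long too, such as that of RPL27A with 4916 bases, so levels per kb are uncertain.

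The members, lists and tests were chosen with earlier results of these data known. The text names the paralogue pairs, the stalk and 5S genes and 7 further members in comparisons with DMSO, the 4 highest and 4 lowest members of each comparison, members called where 10 or fewer were, and up to 3 genes of a list with the smallest p. In pairs of MS8815 with another compound, only RPL5 and RPL11 of the fixed names are given beside the 4 highest and lowest. T and NK cell (3 measured, 0 called), monocyte (4 measured, 2 higher), p53 target (7 of 19 higher, 8 lower) and ribosome rescue lists (2 of 10 higher, 5 lower) were also read for MS8815. Those counts stand beside 24.5% of all genes called higher and 22.4% called lower against DMSO as deposited. Alternatives were other scalings, pseudocounts, level filters, variance models, a replicate block and leaving out each library. A few members and list genes that this rule would name are not reported here.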

Additional observations from a re-analysis of the deposited data

How the results depend on the processing

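Limits come first: with 2 libraries a group and 13000000 to 14600000 reads in the MS8815 libraries, changes near 0.1 log2 were within reach only for abundant members, and most directions for MS8815 rest on how libraries of unlike composition are scaled; RPL3L and RPL22 were above 0 under each of the 4 scalings, and paralogue ratios do not change with a library's factor. Where no share of all genes stands beside a count in this section, the count describes the setting and is no result about the members. For MS8815 against DMSO the number called was 32 when scaled to ribosomal protein genes (an alternative added after seeing the data), with 7624 of all 18744 genes. Called higher were 25 with quantile normalisation, 82 scaled to B-cell genes and 19 scaled to ribosomal protein genes (19.8%, 73.9% and 28.8% of all genes). Called lower under these 3 scalings were 26, 0 and 13 (28.9%, 0.64% and 11.9% of all genes). Limma without trend called 2 higher (4457 of 18744 genes). The upper 50% of genes by level gave 0 higher (1752 of 9372 genes) and 56 lower (4030 of 9372 genes), with a median of -0.20 beside -0.19 over all genes. The median was 0.0066 with quantile normalisation, 0.94 scaled to B-cell genes and 0.0028 scaled to ribosomal protein genes. With 1 library left out, 34 to 48 were called, 33 to 48 lower and 0 to 1 higher, and the median ran from -0.24 to -0.17. For MS8815 against EPZ-6438, limma without trend called 42, with 1 higher; called higher were 24 with quantile normalisation, 82 scaled to B-cell genes and 26 scaled to ribosomal protein genes, and called lower 30, 0 and 24; the medians were -0.0054, 0.96 and 0.014. With 1 library left out, 56 to 67 were called, 2 to 5 higher. For MS8815 against MS8815N, 46 were called when scaled to ribosomal protein genes. Called higher were 18, 82 (78.1% of all genes) and 27 under the same 3 scalings, 1 without trend and 1 in the upper 50% by level. Called lower were 34, 0 (0.956% of all genes) and 19, and the medians were -0.0098, 0.84 and -0.00032. With 1 library left out, the median ran from -0.26 to -0.22. For EPZ-6438 against DMSO, 1 was called without trend, 1 lower (121 of 18320 genes were lower). The median was 0.026 with quantile normalisation and ran from -0.031 to 0.024 with 1 library left out. For MS8815N against DMSO, 3 were called with quantile normalisation (2 higher, 1 lower), 1 higher scaled to B-cell genes and 1 higher with the replicate block; the median was 0.087 scaled to B-cell genes, -0.0016 scaled to ribosomal protein genes and ran from 0.014 to 0.071 with 1 library left out. For MS8815N against EPZ-6438 the median was 0.026 with quantile normalisation, 0.10 scaled to B-cell genes and 0.0035 scaled to ribosomal protein genes. Without mitochondrially encoded and non-polyadenylated genes, the mean share was 6.125% with MS8815, 7.136% with EPZ-6438 and 7.325% with MS8815N. All 83 members were above 0 when MS8815 against DMSO was scaled to B-cell genes, and among named genes below 0 as deposited the values were then RPL22L1 0.028, RPL35A 0.65, RPL4 0.73, RPL26 1.09, RPLP1 1.11, RPL13A 1.13, RPSA 1.11, RPL26L1 1.01, RPS27L 0.99, RPL39 0.88, RPL39L 0.61, RPL7 0.80, RPL3 0.89, RPL10 0.94, RPLP2 0.92, RPL5 0.92, RPL11 1.10, RPS19 1.09, RPS14 0.97, RPS6 0.89, RPS27A 0.89, RPL23A 0.72, RPS26 0.36, RPS7 0.57, FAU 0.66, RPL36AL 0.69, HNRNPA1 0.47, NPM1 0.77, PABPC1 0.68, MRPL4 0.36, UBTF 0.63, NOP56 0.47, PES1 0.50 and EIF4EBP2 0.56. Under quantile normalisation RPL39 was 0.052, RPLP0 -0.072, RPLP2 0.091, RPL11 0.24, RPS19 0.20 and RPS14 0.12; scaled to ribosomal protein genes RPL11 was 0.17 and RPS19 0.16. In the pair with EPZ-6438, RPL5 was 0.030, 0.99 and 0.049 and RPL11 0.17, 1.08 and 0.13 under quantile, B-cell and ribosomal scaling, and scaling to B-cell genes gave RPL22L1 0.098, RPS26 0.35, RPS7 0.52 and RPL39L 0.58. In the pair with MS8815N, RPL5 was 0.022, 0.88 and 0.032 and RPL11 0.12, 1.00 and 0.15, and scaling to B-cell genes gave RPL22L1 -0.089, RPS26 0.34, RPS7 0.43 and RPL39L 0.51. The cause was not tested. Whether replicate numbers pair the samples cannot be settled from the values. The correlation of replicate differences between groups over 15669 genes ran from -0.052 to 0.017. Of the 83 members, replicate 2 was the higher in 76 with DMSO and 67 with MS8815N, but in 49 with EPZ-6438 and 36 with MS8815. With the replicate block, 56 members were called for MS8815 against DMSO, 0 for EPZ-6438, 1 for MS8815N, and 67, 72 and 0 in the pairs of MS8815 with EPZ-6438, MS8815 with MS8815N and MS8815N with EPZ-6438.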
